A study of Rattus norvegicus with 24 samples.

Results

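The genes described here are those of the extracellular matrix, namely collagens, laminins, elastic fibre proteins, small proteoglycans, adhesive and matricellular proteins, and the enzymes and chaperones that process collagen. Of 55 such genes in the list, 51 had at least 1 probe set on the array, by gene symbol in the platform annotation, of 10412 genes with a symbol in all. Col16a1, Col4a3, Thbs1 and Thbs2 had none. Kidney RNA came from 24 male stroke-prone spontaneously hypertensive rats (SHR-SP), an inbred strain with genetic hypertension, in 4 groups of 6 animals with 1 array each. From 11 weeks of age, the groups were fed a high salt and fat diet (24.5% fat in the chow and 1% NaCl in the drinking water) for 2 weeks, a normal powdered chow with plain water for 2 weeks, the high salt and fat diet for 8 weeks, or the normal diet for 8 weeks. All 4 groups carry the SHR-SP genotype, so no group has normal blood pressure by strain. Salt and fat were given together, so that the comparisons address their joint effect. The tissue is whole kidney, in which more cells of a type and more RNA per cell cannot be told apart.

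Fibrillar collagens form the tensile fibres of the interstitium, and their deposition is the hallmark of renal fibrosis. Their chains are made mainly by fibroblasts and pericytes, hydroxylated and folded in the endoplasmic reticulum, trimmed outside the cell and cross-linked by lysyl oxidases. Basement membranes are a separate, sheet-like matrix of type IV collagen, laminins, nidogens and heparan sulphate proteoglycans, which underlies every tubule, capillary and glomerulus of the kidney. Integrins and other receptors tie cells to both kinds of matrix.

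Values are MAS5 signals on a linear scale, and a difference is that of log2(signal + 7.2), ± SE, high salt and fat diet minus normal diet unless said otherwise. This scale understates the change of weak signals. A gene is called where limma gave an adjusted p under 0.05 over 10208 probe sets, and each gene is counted by its probe set of highest mean. Of the 51 genes, 42 passed a filter on low signals and were tested. Array medians lay between 68.7 and 78.7, with trimmed means of 150.034 to 150.042, and the number of arrays limits the precision. Normal-diet arrays 1 and 2 at 8 weeks stood apart in their lowest signals (1st percentile 2.4 and 3 against 0.7 to 1.2 on the other arrays). Results that rest on these arrays are given with and without them. All 8 kidney epithelial markers, among them Umod and Slc34a1, passed the filter. Of the markers of other tissues on the array, 0 of 5 adrenal, 2 of 6 liver, 2 of 5 skeletal muscle, 1 of 1 urothelial and 4 of 6 adipocyte genes passed.

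At 8 weeks, all 5 tested fibrillar collagen genes, the fibronectin gene Fn1, the elastic fibre gene Emilin1, the decorin gene Dcn and 3 of 5 collagen-processing genes were higher in high salt and fat rats than in normal-diet rats. Of the 42 tested matrix genes, 18 were called higher and 1 lower at 8 weeks, where 5.73% of all 7491 genes tested were called higher and 3.76% lower. At 2 weeks 8 were called higher and 0 lower, where the percentages over all genes were 5.03% and 3.59%. Of the 8 genes higher at 2 weeks, 6 encode basement membrane components, and the others were Fn1 and Serpinh1. Of these 8, 6 were also called higher at 8 weeks. The median difference of the 42 genes was 0.15 at 2 weeks and 0.28 at 8 weeks, against 0.03 and 0.00 over all genes. A positive difference was found for 31 of 42 at 2 weeks and for 35 of 42 at 8 weeks, against 55.7% and 50.2% of all genes. All 6 high salt and fat arrays lay above all 6 normal-diet arrays for 5 of the 42 at 2 weeks (2.92% of all genes) and for 7 at 8 weeks (2.39% of all genes). The list of matrix genes was chosen with earlier results of these data known. The shares over all genes therefore describe the list and do not test it.

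Colq and Tnc passed the filter through arrays of 1 diet only, so that their difference was in part set by the filter. With a filter on the mean over all arrays, which left both out, 17 of 40 were called higher at 8 weeks and 8 at 2 weeks. Without normal-diet arrays 1 and 2 at 8 weeks, 17 were called higher and 1 lower at 8 weeks. Of these 18 genes, 16 were among the 19 called with all arrays, and Lamb2, Loxl1 and Pcolce lost their calls. Calls over all 10208 probe sets fell as well, from 933 to 542. The 2-week count was 5 without high salt and fat array 2, which had the highest ratios of 3' to 5' signal of GAPDH (1.40) and of actin (2.27) among the 24 arrays.

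**Figure D1:**
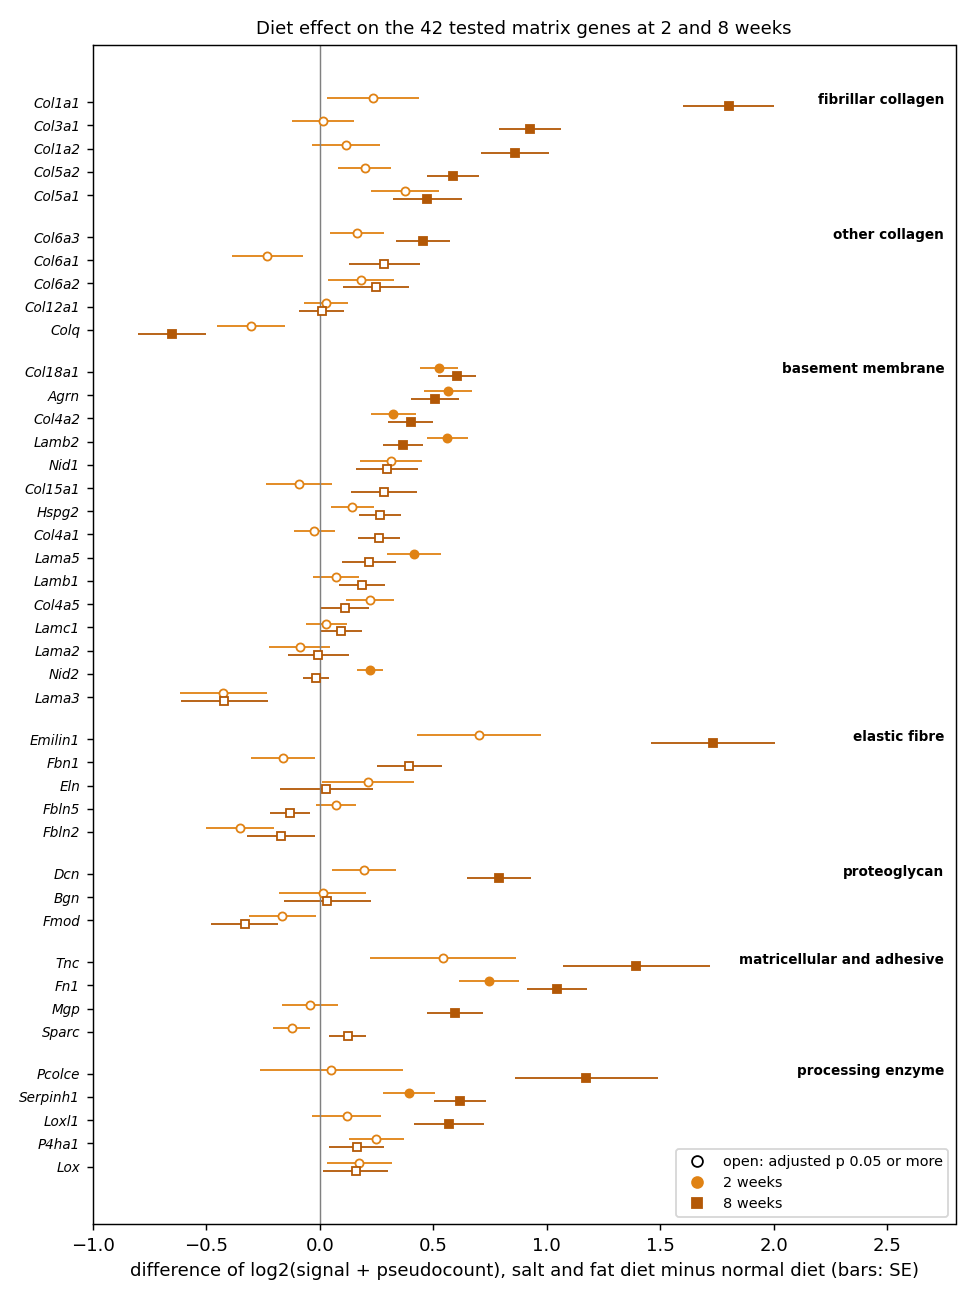
Diet effect on each of the 42 tested matrix genes, by class, as the difference of log2(signal + 7.2), high salt and fat minus normal diet (horizontal axis, bars are SE), at 2 weeks (circles) and 8 weeks (squares). Filled symbols have an adjusted p under 0.05. All 5 fibrillar collagens are filled at 8 weeks and open at 2 weeks, whereas 6 basement membrane genes are filled at 2 weeks.

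Among fibrillar collagens, all 5 tested genes were called higher at 8 weeks, with a median difference of 0.86. At 2 weeks limma called 0 of the 5, with 1 at an unadjusted p under 0.05, where 22.5% of all genes were, and the median was 0.20. Col1a1 encodes the alpha 1 chain of type I collagen, the main collagen of scar. At 2 weeks its signals were 141.4, 162 and 207 (lowest, median and highest of 6 arrays, the order used throughout) in high salt and fat rats and 105, 139 and 236 in normal-diet rats, which overlap widely (0.23 ± 0.20, adjusted p = 0.526). At 8 weeks they were 159, 325 and 467 in high salt and fat rats and 51.3, 84.6 and 105 in normal-diet rats. Every high salt and fat array then lay above every normal-diet array, a 3.49-fold difference (1.80 ± 0.20, adjusted p = 1.11e-06). The other Col1a1 probe set, listed under the same accession, rose by 0.79 (adjusted p = 0.000231), so that the size but not the direction differed between the probe sets. In that other probe set the groups overlapped at 8 weeks, with 97.2 to 188.5 in high salt and fat rats and 65.4 to 101.6 in normal-diet rats.

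Col1a2, the alpha 2 chain that joins Col1a1 in the type I triple helix, had 8-week signals of 269, 530 and 704 in high salt and fat rats and 234, 258 and 291 in normal-diet rats. The groups overlap through the lowest high salt and fat array (0.86 ± 0.15, adjusted p = 0.000359). The 2-week Col1a2 signals were 319, 382 and 467 in high salt and fat rats and 286, 357 and 415 in normal-diet rats (0.12 ± 0.15, adjusted p = 0.692). Its other probe set had 0.21 at 8 weeks (adjusted p = 0.431), so the probe sets of this gene disagree on the call. The region around the Col1a2 start is shown, from RefSeq, because Col1a2 was called at 8 weeks and the region holds TATAAA, the letters of a TATA box. It spans chr4:33518307-33518606 on the plus strand of GRCr8, from 250 bases before to 50 bases after the start, 5' to 3', with matches to the motifs named after it in capitals.
Col1a2: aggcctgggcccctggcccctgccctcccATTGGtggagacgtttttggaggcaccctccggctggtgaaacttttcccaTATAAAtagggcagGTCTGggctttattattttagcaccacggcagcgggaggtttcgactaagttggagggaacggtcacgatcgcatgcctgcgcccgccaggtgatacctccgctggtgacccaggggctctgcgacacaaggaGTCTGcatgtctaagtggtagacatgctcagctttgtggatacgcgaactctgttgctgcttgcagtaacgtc
Both strands were searched for the letters TATAAA of the core promoter element, for the letters CCAAT bound by nuclear factor Y, and for GGGCGG, the GC box bound by Sp1. They were also searched for CAGAC, a short element bound by SMAD proteins, and for the AP-1 element, written TGANTCA. Col1a2 holds TATAAA, the reverse complement of CCAAT and 2 copies of that of CAGAC. These motifs occur in 14.2%, 37.5% and 50.1% of 33469 promoter windows of this length, GGGCGG in 33.1% and TGANTCA in 7.33%, so a match describes the sequence and nothing more. Of 39 windows of matrix genes, 26 hold GGGCGG and 4 TATAAA on either strand, and the distance of the matches from the start was not examined.

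Col3a1, the homotrimeric collagen of distensible tissues and early scar, had 8-week signals of 410, 584 and 881 in high salt and fat rats and 280, 312 and 356 in normal-diet rats. The groups did not overlap (1.90-fold, 0.93 ± 0.14, adjusted p = 5.41e-05). The 2-week Col3a1 signals were 404, 476 and 547 in high salt and fat rats and 344, 468 and 654 in normal-diet rats, and the difference was 0.01 ± 0.14 (adjusted p = 0.964). Col5a1 and Col5a2 encode type V collagen, which sits in the core of type I fibrils and sets their diameter. Col5a2 had 137, 207 and 288 in high salt and fat rats and 120, 124 and 149 in normal-diet rats at 8 weeks, which overlap (0.59 ± 0.12, adjusted p = 0.00164). Its other probe set gave 0.62 (adjusted p = 0.00278). At 2 weeks Col5a2 had 152, 163 and 188 in high salt and fat rats and 125, 147 and 162 in normal-diet rats (0.20 ± 0.12, adjusted p = 0.320). The Col5a1 signals overlapped at 8 weeks, with 96.1, 122 and 162 in high salt and fat rats and 62.3, 81.5 and 126 in normal-diet rats (0.47 ± 0.15, adjusted p = 0.0471). At 2 weeks Col5a1 had 101, 121 and 141 in high salt and fat rats and 65.7, 92.4 and 120 in normal-diet rats (0.38 ± 0.15, adjusted p = 0.126). The Col5a1 call was lost without any 1 of 15 arrays (0.39 to 0.48), that is all but high salt and fat array 3 and normal-diet arrays 1, 2, 3 and 5 at 2 weeks, and high salt and fat arrays 2 and 6 and normal-diet arrays 1 and 2 at 8 weeks, and its other probe set was not called (0.30, adjusted p = 0.131). The 8-week Col5a1 call was also lost under 4 of 17 other settings. These were no filter, no intensity trend, the replicate block and the compared groups alone (adjusted p = 0.0714, 0.0583, 0.0592 and 0.0861). Without normal-diet arrays 1 and 2 at 8 weeks the other 4 fibrillar collagens were called as before, as was Col5a1.

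**Figure D2:**
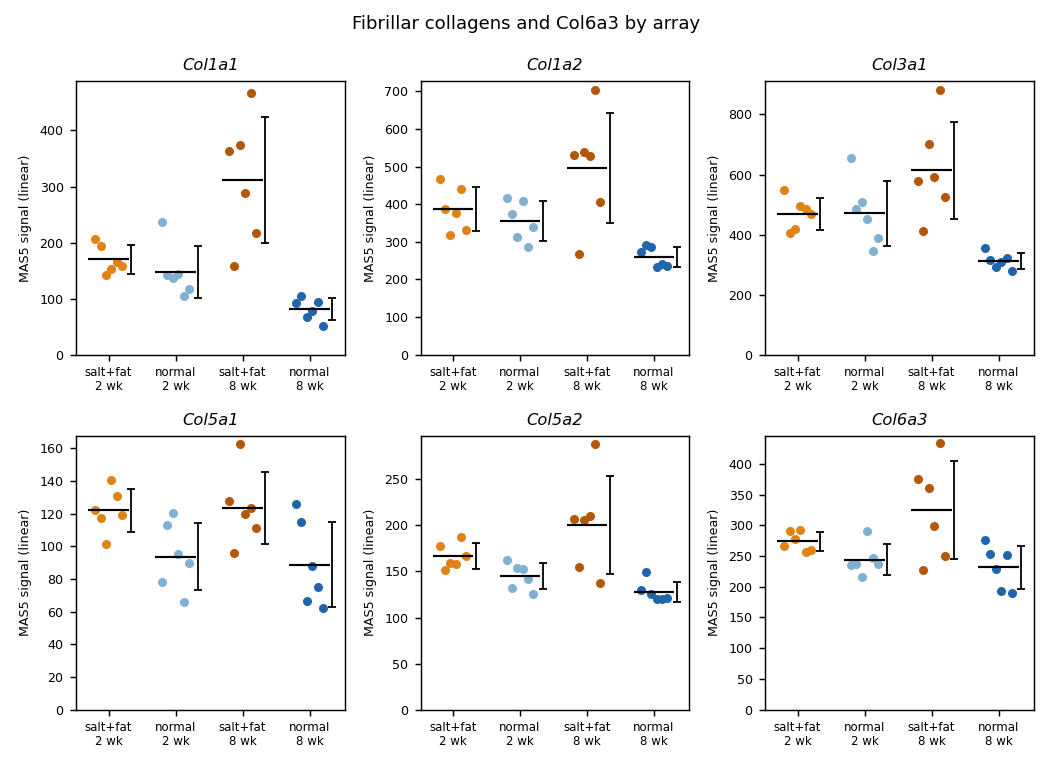
MAS5 signals (linear, axes from 0) of 5 fibrillar collagens and Col6a3 on each array, for 4 groups of 6 animals. Points are arrays, the line is the mean and the bar beside it the SD. At 8 weeks the high salt and fat points of Col1a1 (158.8 to 467.3) and Col3a1 (410.4 to 881.2) lie above all normal-diet points.

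Of 5 tested genes of other collagens, Col6a3 was called higher and Colq lower at 8 weeks. Col6a3, a chain of the beaded type VI microfibrils that surround cells, had 228, 330 and 433 in high salt and fat rats and 189, 240 and 276 in normal-diet rats at 8 weeks, which overlap (0.45 ± 0.12, adjusted p = 0.0159). The call was lost without high salt and fat array 1 or 5 at 8 weeks (0.36 to 0.40), and in a fit of the compared groups alone (adjusted p = 0.0654). At 2 weeks Col6a3 had 257, 272 and 292 in high salt and fat rats and 216, 238 and 291 in normal-diet rats (0.17 ± 0.12, adjusted p = 0.433). Its partner chains Col6a1 and Col6a2 had 0.28 (adjusted p = 0.277) and 0.25 (adjusted p = 0.314) at 8 weeks, and Col12a1, a fibril-associated collagen, had 0.01 (adjusted p = 0.972).

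Colq, the collagen-like tail that anchors acetylcholinesterase at the neuromuscular junction, moved the other way. Its 8-week signals were 24.1, 30.1 and 42.7 in high salt and fat rats and 43.4, 53.0 and 79.6 in normal-diet rats, with no overlap (-0.65 ± 0.15, adjusted p = 0.00625). At 2 weeks Colq had 32.0, 35.3 and 46.5 in high salt and fat rats and 38.1, 48.5 and 53.9 in normal-diet rats (-0.31 ± 0.15, adjusted p = 0.222). Its signals lay around the filter threshold of 44.48 to 54.5, which 8 normal-diet arrays and 0 high salt and fat arrays exceeded. Of 42 genes, 1 did not overlap in the downward direction at 8 weeks, where 1.16% of all genes did so.

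Basement membrane genes were called higher at 2 weeks in 6 of 15 cases and at 8 weeks in 4 of 15, with median differences of 0.22 and 0.26. Col18a1, the gene of type XVIII collagen, a heparan sulphate proteoglycan of basement membranes whose C-terminal fragment is endostatin, rose at both times. Its 2-week signals were 384, 443 and 540 in high salt and fat rats and 284, 313 and 328 in normal-diet rats (1.44-fold, 0.53 ± 0.08, adjusted p = 0.000205). At 8 weeks they were 428, 495 and 544 in high salt and fat rats and 260, 322 and 374 in normal-diet rats (1.52-fold, 0.61 ± 0.08, adjusted p = 2.41e-05). The groups overlapped at neither time, and the other probe set was also called, with 0.52 at 2 weeks and 0.38 at 8 weeks. In that other probe set the groups overlapped at 8 weeks, with 304.6 to 405.8 in high salt and fat rats and 250.2 to 323.8 in normal-diet rats. The start of Col18a1 is shown because this gene was called at both times by both probe sets. It spans chr20:11473395-11473694 on the plus strand of GRCr8 and holds 3 reverse complements of the GC box, in capitals.
Col18a1: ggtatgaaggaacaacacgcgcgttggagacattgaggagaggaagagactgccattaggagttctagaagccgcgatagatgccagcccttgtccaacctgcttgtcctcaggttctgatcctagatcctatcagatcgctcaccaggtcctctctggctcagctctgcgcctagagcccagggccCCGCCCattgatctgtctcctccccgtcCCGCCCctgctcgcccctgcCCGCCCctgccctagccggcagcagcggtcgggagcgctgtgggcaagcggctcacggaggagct

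Agrn encodes agrin, a heparan sulphate proteoglycan of the glomerular basement membrane. Agrn had 205, 242 and 290 in high salt and fat rats and 129, 165 and 181 in normal-diet rats at 2 weeks, with no overlap (0.56 ± 0.11, adjusted p = 0.00111). At 8 weeks it had 165, 208 and 243 in high salt and fat rats and 123, 139 and 165 in normal-diet rats (0.51 ± 0.11, adjusted p = 0.00250). Lamb2, the beta 2 laminin chain of glomerular and vascular basement membranes, also rose at both times. Its 2-week signals of 204, 248 and 288 in high salt and fat rats lay wholly above those of 139, 170 and 181 in normal-diet rats (0.56 ± 0.09, adjusted p = 0.000208). At 8 weeks Lamb2 had 196, 222 and 268 in high salt and fat rats and 164, 172 and 200 in normal-diet rats (0.37 ± 0.09, adjusted p = 0.0102), which became 0.34 (adjusted p = 0.0503) without normal-diet arrays 1 and 2.

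Lama5 encodes the laminin alpha 5 chain, the main alpha chain of mature glomerular and tubular basement membranes, and Nid2 encodes a nidogen that links laminin to type IV collagen. Lama5 had 161, 210 and 231 in high salt and fat rats and 124, 144 and 190 in normal-diet rats at 2 weeks (0.41 ± 0.12, adjusted p = 0.0295). The call was lost without any 1 of high salt and fat arrays 1 to 4 or normal-diet arrays 2, 3 and 6 of that time (0.36 to 0.41). At 8 weeks Lama5 had 146, 192 and 246 in high salt and fat rats and 134, 170 and 200 in normal-diet rats (0.22 ± 0.12, adjusted p = 0.281). Nid2 varied little between animals, and its 2-week signals of 396, 403 and 424 in high salt and fat rats were all above the 325, 342 and 380 of normal-diet rats (0.22 ± 0.06, adjusted p = 0.0140). At 8 weeks Nid2 had 295, 324 and 337 in high salt and fat rats and 306, 317 and 345 in normal-diet rats (-0.02 ± 0.06, adjusted p = 0.902). The difference between the times was not called for Nid2 (interaction -0.24, adjusted p = 0.218) or Lama5 (-0.20, adjusted p = 0.704).

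Col4a1 and Col4a2 encode the chains of the common type IV collagen network and lie head to head. In RefSeq their starts are 77 bases apart on opposite strands of chromosome 16, so that their 300-base windows share 176 bases. The windows are shown because these neighbouring genes were measured separately, in the same orientation as above, with capitals for the same motifs. That of Col4a1 is chr16:84885347-84885646 on the plus strand and that of Col4a2 is chr16:84885471-84885770 on the minus strand of GRCr8.
Col4a1: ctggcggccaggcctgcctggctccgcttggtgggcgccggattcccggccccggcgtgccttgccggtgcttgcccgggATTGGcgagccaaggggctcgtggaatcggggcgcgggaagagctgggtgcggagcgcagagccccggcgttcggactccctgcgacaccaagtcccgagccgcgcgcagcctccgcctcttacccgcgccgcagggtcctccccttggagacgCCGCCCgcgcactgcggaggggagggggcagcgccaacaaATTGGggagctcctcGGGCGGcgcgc
Col4a2: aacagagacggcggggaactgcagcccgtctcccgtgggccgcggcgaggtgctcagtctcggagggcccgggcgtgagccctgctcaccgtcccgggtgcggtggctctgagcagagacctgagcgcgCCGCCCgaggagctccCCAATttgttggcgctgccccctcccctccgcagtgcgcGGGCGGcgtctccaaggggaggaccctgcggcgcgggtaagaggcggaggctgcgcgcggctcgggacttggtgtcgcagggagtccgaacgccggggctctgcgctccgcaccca
Each window holds 2 GC boxes, read from opposite strands in the shared stretch, and at least 1 CCAAT motif on either strand, and neither holds TATAAA. Col4a2 had 402, 490 and 645 in high salt and fat rats and 345, 402 and 469 in normal-diet rats at 2 weeks (0.32 ± 0.10, adjusted p = 0.0404). The groups overlap, and the call was lost without any 1 of high salt and fat arrays 1, 2, 4 and 5 or normal-diet arrays 1, 2, 4, 5 and 6 of that time (0.25 to 0.34). It was also lost under 9 of 17 other settings (0.26 to 0.32), among them quantile normalization, median centring, no filter and the replicate block. At 8 weeks Col4a2 had 431, 531 and 588 in high salt and fat rats and 340, 404 and 444 in normal-diet rats (0.40 ± 0.10, adjusted p = 0.0111). Col4a1 had -0.02 at 2 weeks (adjusted p = 0.906) and 0.26 at 8 weeks (adjusted p = 0.0717), and its other probe set had 0.35 at 8 weeks (adjusted p = 0.0357). Whether Col4a1 and Col4a2 differ from each other was not tested.

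The other 9 basement membrane genes tested were called at neither time. Among them Nid1, the other nidogen gene, had 0.32 at 2 weeks and 0.30 at 8 weeks (its other probe set -0.15 and 0.40, which differ in sign at 2 weeks), Hspg2, the gene of perlecan, had 0.14 and 0.26, and Lamc1, the common gamma 1 chain of laminins, had 0.03 and 0.09. Lama3, an epithelial laminin chain, was the lowest at both times (-0.42 and -0.42, adjusted p = 0.179 and 0.177).

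**Figure D3:**
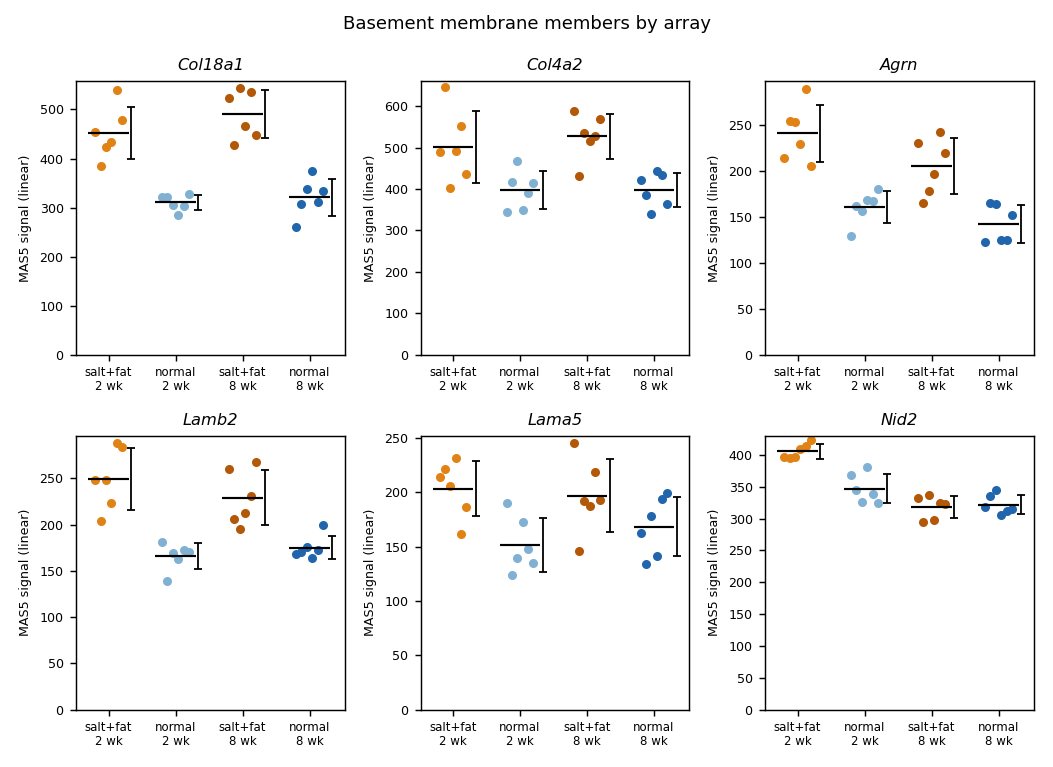
MAS5 signals (linear, axes from 0) of 6 basement membrane genes on each array, for 4 groups of 6 animals, with the mean (line) and SD (bar). At 2 weeks the high salt and fat points of Col18a1, Agrn, Lamb2 and Nid2 lie above every normal-diet point, and at 8 weeks those of Nid2 (295.1 to 337.1) lie among the normal-diet points (306.2 to 344.7).

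Elastic fibres give vessels and interstitium their recoil. Of 5 tested elastic fibre genes, Emilin1 was called at 8 weeks and 0 genes at 2 weeks (limma, with 2 at an unadjusted p under 0.05). Emilin1 encodes a glycoprotein at the interface of elastin and microfibrils. Its 8-week signals were 77.3, 98.8 and 139 in high salt and fat rats and 13.2, 24.2 and 48.5 in normal-diet rats, without overlap (1.73 ± 0.27, adjusted p = 0.000115). At 8 weeks 0 of 6 normal-diet arrays exceeded the filter threshold, and the size depends on the pseudocount, with 1.15 at 0.5 times and 1.95 at 0.02 times the median of array medians. At 2 weeks they were 64.4, 74.4 and 95.4 in high salt and fat rats and 11.8, 59.7 and 76.0 in normal-diet rats (0.70 ± 0.27, adjusted p = 0.111). The microfibril gene Fbn1 had 0.39 at 8 weeks (adjusted p = 0.0810), elastin Eln had 0.03, Fbln2 had -0.17 and Fbln5 had -0.13, none of them called.

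Of 3 tested small proteoglycan genes, Dcn was called. Dcn encodes decorin, which binds collagen fibrils and can sequester TGF-beta. Dcn had 787.5, 1172 and 1641 in high salt and fat rats and 584, 634 and 830.0 in normal-diet rats at 8 weeks (1.73-fold, 0.79 ± 0.14, adjusted p = 0.000577). The groups overlap through the lowest high salt and fat array and the highest normal-diet array. At 2 weeks Dcn had 758, 813 and 1123 in high salt and fat rats and 625, 726 and 1003 in normal-diet rats (0.20 ± 0.14, adjusted p = 0.433). The related biglycan gene Bgn had 0.03 (adjusted p = 0.945) and fibromodulin, Fmod, had -0.33 (adjusted p = 0.169) at 8 weeks.

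Of 4 tested adhesive and matricellular genes, Fn1, Mgp and Tnc were called higher at 8 weeks and Fn1 at 2 weeks. Fn1 encodes fibronectin, the provisional matrix glycoprotein on which collagen fibrils assemble. Its 2-week signals were 452, 622 and 707 in high salt and fat rats and 300.3, 370 and 388 in normal-diet rats (1.68-fold, 0.75 ± 0.13, adjusted p = 0.000689). At 8 weeks they were 498, 627 and 981 in high salt and fat rats and 278, 305 and 399 in normal-diet rats (2.07-fold, 1.05 ± 0.13, adjusted p = 6.74e-06). The groups overlapped at neither time.

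Mgp encodes matrix Gla protein, an inhibitor of vascular calcification. Its 8-week signals were 1652, 2485 and 3296 in high salt and fat rats and 1426, 1587 and 1780 in normal-diet rats (0.60 ± 0.12, adjusted p = 0.00235). At 2 weeks Mgp had 1294, 1654 and 1815 in high salt and fat rats and 1403, 1617 and 1880 in normal-diet rats (-0.04 ± 0.12, adjusted p = 0.879, a sign that turned under 3 other settings). Tnc, the gene of tenascin-C, which is induced in remodelling tissue, was weak. It had 22.0, 57.6 and 98.4 in high salt and fat rats and 3.0, 21.4 and 33.3 in normal-diet rats at 8 weeks, which overlap (1.39 ± 0.32, adjusted p = 0.00669). The filter threshold was exceeded by 6 high salt and fat arrays and 0 normal-diet arrays, so that the filter in part set the Tnc difference. Its size at 8 weeks lay between 0.76 and 1.77 under 15 other settings. At 2 weeks Tnc had 37.7, 49.8 and 54.8 in high salt and fat rats and 12, 36.4 and 40.3 in normal-diet rats (0.54 ± 0.32, adjusted p = 0.324). Sparc, a collagen-binding matricellular protein, had 0.12 at 8 weeks (adjusted p = 0.379) and 0.19 for its other probe set.

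All 5 processing genes were tested, and Serpinh1, Loxl1 and Pcolce were called higher at 8 weeks. Serpinh1 encodes HSP47, the collagen-specific chaperone of the endoplasmic reticulum. It had 350, 477 and 527 in high salt and fat rats and 293, 361 and 429 in normal-diet rats at 2 weeks (0.39 ± 0.11, adjusted p = 0.0301). The call was lost without any 1 of high salt and fat arrays 2, 3 and 5 or normal-diet arrays 1 and 4 of that time (0.34 to 0.38). At 8 weeks Serpinh1 had 456, 560 and 646 in high salt and fat rats and 292, 345 and 435 in normal-diet rats, with no overlap (1.53-fold, 0.62 ± 0.11, adjusted p = 0.000818). Pcolce encodes the enhancer of the protease that removes the C-terminal propeptide of procollagen. Pcolce had 141.0, 158 and 204 in high salt and fat rats and 12.5, 106 and 130 in normal-diet rats at 8 weeks, with no overlap (1.17 ± 0.32, adjusted p = 0.0184). Its difference was 1.03 without normal-diet array 1 (adjusted p = 0.0547) and 0.51 without normal-diet arrays 1 and 2 (adjusted p = 0.110). The Pcolce call was also lost in a fit of the compared groups alone (adjusted p = 0.0598). At 2 weeks Pcolce had 83.9, 148 and 174 in high salt and fat rats and 74.1, 145 and 163 in normal-diet rats (0.05 ± 0.32, adjusted p = 0.941).

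Loxl1, a lysyl oxidase that cross-links elastin, had 95.1, 142 and 164 in high salt and fat rats and 67.6, 93.8 and 121 in normal-diet rats at 8 weeks, which overlap (0.57 ± 0.15, adjusted p = 0.0183). Without normal-diet arrays 1 and 2 its difference was 0.40 (adjusted p = 0.153), and the call was also lost without either of them or without high salt and fat array 1 (0.49 to 0.52). At 2 weeks Loxl1 had 69.0, 121 and 138 in high salt and fat rats and 81.8, 106 and 127 in normal-diet rats (0.12 ± 0.15, adjusted p = 0.695). Lox itself had 0.16 and P4ha1, a prolyl hydroxylase subunit, 0.16 at 8 weeks, neither called.

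**Figure D4:**
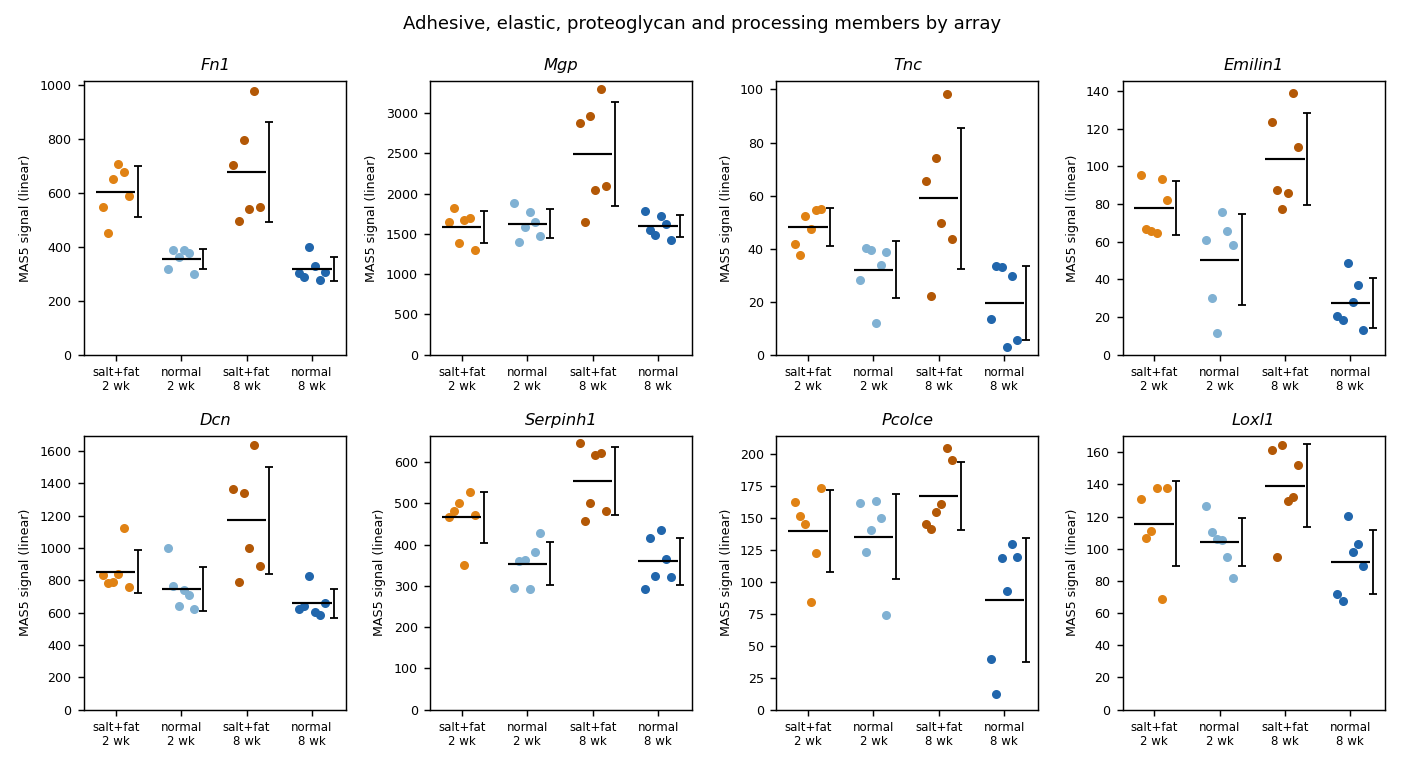
MAS5 signals (linear, axes from 0) of 8 adhesive, elastic, proteoglycan and processing genes on each array, for 4 groups of 6 animals, with the mean (line) and SD (bar). The high salt and fat points of Fn1 lie above all normal-diet points at both times, those of Emilin1 (77.3 to 138.9) and Serpinh1 (456.4 to 645.9) at 8 weeks only, as do those of Pcolce, which has low normal-diet points down to 12.5 at 8 weeks.

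Receptors of the matrix and further enzymes that modify collagen were read as separate lists. Of 15 tested matrix receptor genes, 1 was higher and 1 lower at 2 weeks, and 4 were higher and 0 lower at 8 weeks, with medians of -0.04 and 0.10. Over all genes 5.03% were called higher and 3.59% lower at 2 weeks, and 5.73% and 3.76% at 8 weeks. The 2-week receptor shares, 6.67% higher and 6.67% lower, lie near those over all genes. Bcam, a laminin alpha 5 receptor, had signals of 448 ± 46.0 in high salt and fat rats and 248 ± 28.5 in normal-diet rats at 2 weeks (SD, n = 6, limma adjusted p = 7.96e-08, 0.84 ± 0.08). At 8 weeks Bcam had 438 ± 31.4 in high salt and fat rats and 250 ± 18.9 in normal-diet rats (0.79 ± 0.08, limma adjusted p = 1.57e-07). At 8 weeks the syndecan Sdc1 (0.46 ± 0.10, adjusted p = 0.00607), the hyaluronan receptor Cd44 (0.71 ± 0.19, adjusted p = 0.0169) and the integrin beta 1 chain Itgb1 (0.32 ± 0.10, adjusted p = 0.0396) also rose. The gene lower at 2 weeks was the laminin-binding integrin chain Itga6 (-0.60 ± 0.18, adjusted p = 0.0306), named after its value was seen. Of 10 other collagen-modifying enzyme genes, 2 were higher and 0 lower at each time, against the same percentages over all genes, with medians of -0.03 and 0.10. Plod2, the lysyl hydroxylase of collagen telopeptides, rose by 0.61 ± 0.12 at 2 weeks and 0.83 ± 0.12 at 8 weeks (adjusted p = 3.61e-05). Ppib, cyclophilin B, rose by 0.30 ± 0.07 at 8 weeks (adjusted p = 0.00409), and the other gene called at 2 weeks was the prolyl hydroxylase subunit P4ha2 (0.68 ± 0.13), named after its value was seen.

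The interaction tests whether the diet effect at 8 weeks differs from that at 2 weeks. It was called for Col1a1 (1.57 ± 0.28, adjusted p = 0.0110) and Col3a1 (0.91 ± 0.19, adjusted p = 0.0247), that is for 2 of 42 matrix genes, higher at 8 weeks, where 0.36% of all genes were called in that direction and 0.0534% in the other. The other Col1a1 probe set was not called (0.62 ± 0.19, adjusted p = 0.158), and the mean of both probe sets was (1.09, adjusted p = 0.0169). At an unadjusted p under 0.05 there were 14 matrix genes, against 11% of all genes. Over all 42 genes the interaction was positive for 29, against 45.4% of all genes, and 40 were not called. Without normal-diet arrays 1 and 2 at 8 weeks it was 1.71 for Col1a1 and 0.96 for Col3a1, both called. Without 1 array the number called was between 1 and 4. It was 1 without normal-diet array 3 or high salt and fat array 3 at 2 weeks, or without normal-diet array 6 or high salt and fat array 3 at 8 weeks, each of which left Col3a1 uncalled (0.86 to 0.88), and 4 without high salt and fat array 2 at 8 weeks. From Col1a1 signals at 8 and 2 weeks, the change over time was 0.78 ± 0.20 in high salt and fat rats (adjusted p = 0.0257) and -0.79 ± 0.20 in normal-diet rats (adjusted p = 0.189). Its other probe set had 0.47 ± 0.13 (adjusted p = 0.0404) and -0.15 ± 0.13 (adjusted p = 0.804). For Col3a1 these were 0.35 ± 0.14 and -0.56 ± 0.14, neither called.

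Between 8 and 2 weeks in high salt and fat rats, Col1a1 and Mgp (0.62 ± 0.12, adjusted p = 0.00387) were called higher and Nid2 and Fbln5 lower, where 2.04% of all genes were called higher and 1.47% lower. The Col1a1 call was lost without any 1 of arrays 1, 3 and 5 at 8 weeks or arrays 3 and 4 at 2 weeks (0.64 to 0.75). The animals were also older at 8 weeks, and age and time on the diet cannot be told apart within a diet. Nid2 had 295, 324 and 337 at 8 weeks and 396, 403 and 424 at 2 weeks on this diet, without overlap (-0.35 ± 0.06, adjusted p = 0.000650). Fbln5, an elastic fibre assembly protein, had 327, 360 and 445 at 8 weeks and 455, 491 and 538 at 2 weeks, again without overlap (-0.40 ± 0.09, adjusted p = 0.00739). For 2 of the 42 genes all 8-week arrays lay below all 2-week arrays, where 0.761% of all genes did so. Without high salt and fat array 2 at 8 weeks the number called on this diet was 8 in place of 4. On the normal diet limma called 0 of 42 matrix genes between 8 and 2 weeks, with 9 at an unadjusted p under 0.05, where 0.04% of all genes were called higher, 0.0133% lower and 8.72% had such an unadjusted p. The difference was positive for 14 of the 42, against 54.5% of all genes. It was negative for the other 28, among them all 5 fibrillar collagens, whose median was -0.43.

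Matrix genes varied more between animals in the 8-week high salt and fat group than in the other groups, a difference that was not tested. For the 18 genes called higher at 8 weeks, the median SD between animals was 0.33 on the log2 scale in that group, against 0.19 in normal-diet rats at 8 weeks, and 0.20 in high salt and fat rats and 0.20 in normal-diet rats at 2 weeks. Over all genes tested the median SD was 0.18 in the 8-week high salt and fat group and 0.18 in the 8-week normal-diet group. For the other 24 tested matrix genes it was 0.24 in the 8-week high salt and fat group, against 0.20 in normal-diet rats at 8 weeks, and 0.18 in high salt and fat rats and 0.16 in normal-diet rats at 2 weeks. The limma fit shares 1 estimate of spread per gene over the 4 groups, so that 8-week SEs draw also on the less variable groups. In a fit of the compared groups alone, 15 of 42 genes were called higher and 1 lower at 8 weeks. Col5a1, Col6a3 and Pcolce then lost their calls (adjusted p = 0.0861, 0.0654 and 0.0598). Array 2 of the 8-week high salt and fat group had the lowest signal of its group for 15 of the 18 genes, with a mean deviation of -0.44 from the group, and array 5 had the highest for 12, with a mean deviation of 0.35. Mean deviations in the other 3 groups lay between -0.14 and 0.15. Array 2 also had the highest GAPDH 3' to 5' ratio of its group (1.33 against 1.07 to 1.196), whose part in these values was not tested.

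**Figure D5:**
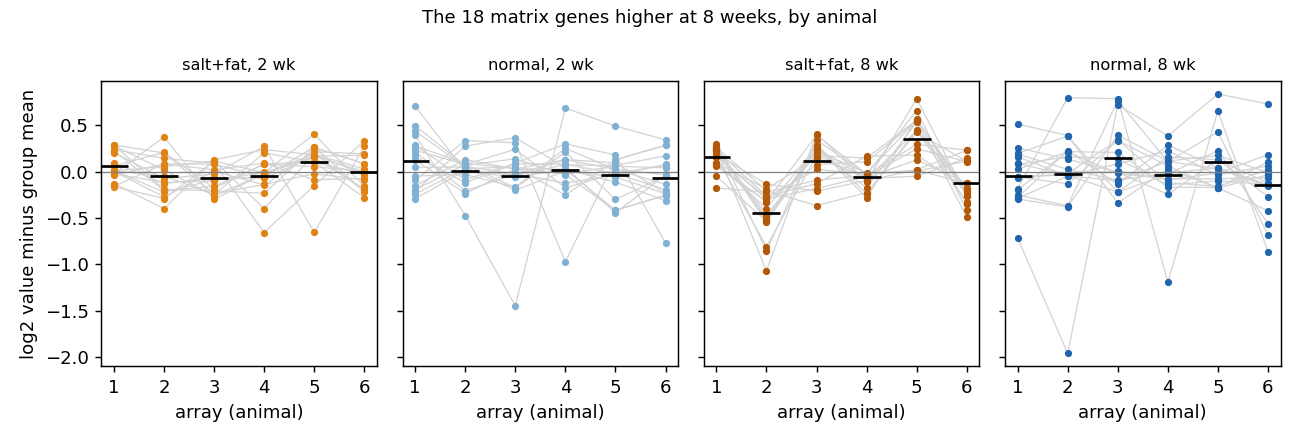
Deviation of each of the 18 matrix genes called higher at 8 weeks from its group mean (vertical axis, log2 scale) on each array (horizontal axis), in the 4 groups. Grey lines join a gene across animals and black bars are means over genes. In the 8-week high salt and fat group, array 2 averages -0.44 and array 5 averages 0.35.

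Markers of other cells moved with some of these results, and their part in them was not tested. At 8 weeks the summed signal of 7 fibroblast and pericyte markers was 927 to 1255 in high salt and fat rats and 698 to 894 in normal-diet rats, with 1 of 5 tested genes called higher, S100a4 (2.17 ± 0.23, and 1.19 ± 0.23 at 2 weeks, also called), and Pdgfra at 0.18, Pdgfrb at 0.03, Thy1 at 0.28 and Nt5e at -0.13, not called. At 2 weeks the sum was 777 to 995 in high salt and fat rats and 757 to 951 in normal-diet rats, with Pdgfrb at -0.15 and Nt5e at -0.24, not called. The 8-week sum of 7 smooth muscle markers was 864 to 1028 in high salt and fat rats and 604 to 794 in normal-diet rats, with Tagln alone called of 5 (1.69 ± 0.21). A positive difference was found for 4 of the 5 smooth muscle markers at 8 weeks and for 3 of the 5 at 2 weeks. At 2 weeks Tagln (0.76 ± 0.21) and Smtn (0.34 ± 0.09) were called, and the sum was 585 to 675 in high salt and fat rats and 487.5 to 670 in normal-diet rats. The 8-week sum of 6 macrophage markers was 2730 to 3685 in high salt and fat rats and 2194 to 2771 in normal-diet rats, with 3 of the 6 called higher. At 2 weeks it was 2200 to 2631 in high salt and fat rats and 2531 to 2893 in normal-diet rats, with 0 called by limma and 2 at an unadjusted p under 0.05. The interaction, called above for Col1a1 and Col3a1, was also called for the 3 macrophage genes higher at 8 weeks, C1qa (0.62), Cd68 (1.05) and Lyz2 (0.52). The 8-week sum of 6 endothelial markers was 953 to 1161 in high salt and fat rats and 1041 to 1199 in normal-diet rats. Of these 6 endothelial markers, 3 had a positive difference at 8 weeks, and 1 was called higher at 2 weeks. The 8-week sum of 5 podocyte markers was 678 to 841 in high salt and fat rats and 782 to 945 in normal-diet rats. At 8 weeks 1 gene in each of the endothelial and podocyte lists, Kdr and Synpo, was called lower. Of 8 kidney epithelial markers, 2 were called higher and 2 lower at each time, Aqp2 and Slc12a1 higher at both, Lrp2 lower at both, Slc34a1 lower at 2 weeks and Slc22a6 lower at 8 weeks.

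At 2 weeks the sum of 6 adipocyte markers was 148 to 268 in high salt and fat rats and 228 to 1855 in normal-diet rats, with 3 of 4 tested genes called lower. The spike-in level was lower in high salt and fat rats by 0.30 at 2 weeks (exact two-sided permutation p = 0.00216, the smallest that 6 against 6 arrays allow, adjusted p = 0.0173 over 8 tests). At 8 weeks it was higher in high salt and fat rats by 0.23 (exact permutation p = 0.0476, adjusted p = 0.0952). The GAPDH 3' to 5' ratio was 1.22 ± 0.09 in high salt and fat rats and 1.09 ± 0.07 in normal-diet rats at 2 weeks (SD, n = 6, exact permutation p = 0.0152, adjusted p = 0.0405). When 1 covariate at a time was added (fat index, GAPDH ratio, spike-in level), 5 matrix genes were called higher at 2 weeks in each case and the interaction was called for 0, with 9, 8 and 11 at an unadjusted p under 0.05 (limma). With the fat index, 4 of these 5 were among the 8 called without it. The fibrillar collagen gene Col5a1 was newly called at 2 weeks (0.76, adjusted p = 0.0121). At 8 weeks 18, 19 and 15 were called higher under these covariates. With the spike-in level, Col6a3 (0.46, adjusted p = 0.0553) and Loxl1 (0.41, adjusted p = 0.17) lost their 8-week calls. So did Pcolce (0.80, adjusted p = 0.184) and Colq (-0.55, adjusted p = 0.0585). Calls over all 10208 probe sets fell as well, to 232, 328 and 482 at 2 weeks, against 892 with no covariate, and to 13, 4 and 0 for the interaction, against 39. At 8 weeks calls over all probe sets were 1024, 959 and 497, against 933 with no covariate. The interaction difference was then 1.22, 1.29 and 1.64 for Col1a1 (adjusted p = 0.137, 0.0715 and 0.168) and 0.67, 0.68 and 0.94 for Col3a1 (adjusted p = 0.259, 0.152 and 0.273). Among the 2-week genes, Agrn lost its call with the fat index (0.41, adjusted p = 0.0975). Nid2 lost it with the fat index (0.20, adjusted p = 0.156) and with the spike-in level (0.20, adjusted p = 0.0973). Lama5 lost it with the fat index (0.35, adjusted p = 0.265) and with the GAPDH ratio (0.44, adjusted p = 0.085). Col4a2 lost it with the GAPDH ratio (0.29, adjusted p = 0.208) and with the spike-in level (0.30, adjusted p = 0.166). Serpinh1 lost it under each covariate (0.33, 0.42 and 0.38, adjusted p = 0.257, 0.0889 and 0.125). Col18a1, Lamb2 and Fn1 kept their 2-week calls under each covariate.

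Of the remaining genes, 21 of the 42 tested were called at neither time, with differences between -0.42 (Lama3) and 0.32 (Nid1) at 2 weeks and between -0.42 (Lama3) and 0.39 (Fbn1) at 8 weeks. Below the filter, and not tested, lay 9 genes, Col5a3, Col8a1, Col14a1, Lama4, Efemp1, Fbln1, Lum, Vcan and Postn. Col8a1, a short-chain collagen of vessel walls, missed the filter by 1 array, with 5 arrays above the threshold, all in high salt and fat rats at 8 weeks. Its signals were 36.3, 86.2 and 105 in high salt and fat rats and 9.5, 33.6 and 49.8 in normal-diet rats at 8 weeks. At 2 weeks Col8a1 had 23.2, 31 and 36.5 in high salt and fat rats and 3.5, 13.4 and 20 in normal-diet rats, all below the threshold and without overlap. With no filter, limma called Col8a1 higher at 8 weeks (1.22 ± 0.27, adjusted p = 0.00613). Col8a1 was also called higher at 2 weeks (adjusted p = 0.0390), where all its signals lay below the threshold, so that this size is not given. The same fit also called Lum, Vcan and Fbln1 higher at 8 weeks, but Lum exceeded the threshold on 3 of 24 arrays and Vcan and Fbln1 on 0, so that the size of these differences is not given. Negative differences at 2 weeks, not called, were found for Col5a3, Col14a1, Lama4 and Postn. Postn, the gene of periostin, had signals of 0.9 to 49.8 in high salt and fat rats and 2.4 to 47.3 in normal-diet rats at 8 weeks.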

How the data were processed

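Total RNA of powdered whole kidneys was hybridised to 1 array per sample, per the labels' protocols. The authors deposited 1 intensity per probe set and array, a MAS5 signal per the submitters' processing notes. Version, scanner, scaling target and detection calls are not given in the sources used here. The values are linear, with 27 at 0, and share nearly the same trimmed mean, as arrays scaled to a common target do.

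Symbols came from the platform annotation. Of 15923 probe sets, 57 were controls, 12783 had 1 symbol, 312 several and 2771 none. Tests used log2(signal + 7.2), the pseudocount being 0.1 times the median (72) of the arrays' medians, and no other scaling. A probe set was kept if it exceeded its array's 40th percentile in 6 or more of 24 arrays. limma 3.58.1 under R 4.3.3 fitted 4 group means over all 24 arrays with an intensity trend, two-sided, with Benjamini-Hochberg adjustment over 10208 probe sets. The procedure was tested on simulated data, with independent normal noise and 1 spread per probe set for all 4 groups. Unequal spread between groups, and genes that move together by animal, were not simulated. The labels give 1 sample per replicate number and do not name animals beyond the design's 6 per diet and time.

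Samples with the same replicate number were not treated as pairs. Their deviations from group means correlated by -0.104 to 0.162 over 24 same-numbered pairs, with 5 above 0.1. Differently numbered pairs were not examined, so these correlations cannot decide whether the numbers pair the samples. Arrays of a group correlated by 0.958 to 0.981 in log2 signal, and pairs of arrays of a group had at most 0.691% of probe sets at exactly the same signal. Gene members, classes, receptor, enzyme and marker lists were chosen with earlier results of these data known. Signals are given for each gene called in a diet comparison or the interaction, and others by range. Of the pathway lists, up to 4 genes of smallest p at 8 weeks were named. The spike-in level averages 18 control probe sets, and the fat index averages standardised values of 3 fat genes (Car3, Cfd, Fabp4). Promoter sequences are from RefSeq (GRCr8), which gave windows for 38 of the 55 genes. Other settings are listed in the closing section.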

Additional observations from a re-analysis of the deposited data

Results flagged for a closer look

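The diet effect differed between 8 and 2 weeks, by limma's interaction test, for Col1a1 (1.57, adjusted p = 0.0110, but 0.62 with adjusted p = 0.158 for its other probe set) and Col3a1 (0.91, adjusted p = 0.0247).

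Single arrays stood apart from the other 5 of their group in 7 of the 84 sets of 6 values examined for the 21 genes, where chance alone gives about 1 in 20. Serpinh1 had 349.7 on high salt and fat array 4 at 2 weeks, below the 466.8 to 527.4 of the others. Dcn had 1122.8 on high salt and fat array 5 at 2 weeks, above 758.1 to 842.3, and 830 on normal-diet array 3 at 8 weeks, above 584.3 to 663. Col5a2 had 149 on normal-diet array 2 at 8 weeks, above 120.4 to 129.8. Lamb2 had 199.7 on normal-diet array 6 at 8 weeks, above 164.2 to 175.8. Tnc had 12 on normal-diet array 4 at 2 weeks, below 28.1 to 40.3. Pcolce had 74.1 on normal-diet array 6 at 2 weeks, below 123.2 to 163.2.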

How the results depend on the processing

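Counts of matrix genes called were recomputed under 17 other settings and without each of the 24 arrays. The settings were other pseudocounts, quantile normalization, median centring, no filter, a stricter filter, a filter on the mean, no trend, a robust fit, array weights, a replicate block, the compared groups alone, leaving out the 8-week normal-diet arrays 1 and 2, 3 single covariates (fat index, GAPDH ratio, spike-in level), and the mean of a gene's probe sets. At 8 weeks the count of 19 lay between 15 and 22, and between 16 and 21 without 1 array. At 2 weeks the count of 8 was 5 with each of the 3 covariates, and 5 to 8 without 1 array. The interaction count of 2 was 1 with no trend, 0 with each covariate, and 1 to 4 without 1 array. In high salt and fat rats the count of changes over time of 4 was 3 to 8 without 1 array. In normal-diet rats it was 0 under each of these, with 9 at an unadjusted p under 0.05 in the fit as reported (limma).

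The interaction, which needs all 4 groups, has no value from the compared groups alone. With the replicate block, which the correlations give no ground to treat as pairing, the counts were 7 at 2 weeks and 19 at 8 weeks. Signs turned only for small differences that were not called. At 2 weeks, Mgp had 0.028 after quantile normalization, 0.0812 with the fat index and 0.11 with the GAPDH ratio, Pcolce had -0.23 with the fat index and -0.15 with the GAPDH ratio, and with the spike-in level Col1a2 had -0.0093 and Col3a1 -0.0032. Without 1 array, Mgp (-0.0829 to 0.0144), Pcolce (-0.10 to 0.18) and Col3a1 (-0.0683 to 0.11) at 2 weeks and Nid2 (-0.0329 to 0.0046) at 8 weeks spanned 0. Of 1956 recomputed gene values, 1845 kept direction and call, 92 lost the call, 1 gained it and 18 turned sign. MAS5 detection calls were not used, and weak signals such as those of Tnc, Colq and, on the normal diet, Emilin1 lie near the filter threshold.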
